A study of Mus musculus with 8 samples.

Results

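Igfbp3, Igfbp4 and Igfbp6, 3 genes for insulin-like growth factor (IGF) binding proteins, were read in cultured mesenchymal stem cells (MSC) of NOD and BALB/c mice. The probes were chosen by identifier. The tables give no gene symbols, and a probe was assigned to a gene where the zero-padded number inside its identifier was that gene's Entrez ID. Each of the 3 genes had 1 such probe among the 46628 probes of the deposited table, on which 8102 genes could be named. All 3 passed the filter on dim probes, which left 4220 named genes to be tested.

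MSC are plastic-adherent stromal cells that can form bone, fat and cartilage. The 4 NOD cultures came from the bone marrow of NOD mice, a strain that develops autoimmune diabetes spontaneously, taken while blood glucose was normal. The 4 BALB/c cultures came from BALB/c mice of matching age and were the study's reference. All cultures were used at passage 4 and hybridised to 1-colour Illumina arrays. The design text says that marrow of at least 5 mice was combined for a culture, while the sample titles read as single animals. P-values here therefore measure the spread between cultures. The design text also lists NOD samples ahead of BALB/c samples, whereas the sample labels list BALB/c first. Each array was assigned by its own strain label, and every direction given here rests on those labels. A treatment with interleukin-1 beta is also described, but no array carries that label. The labels state no sex, exact age or genetic modification.

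IGF binding proteins are secreted proteins that hold IGF1 and IGF2 outside the cell. They lengthen the life of these growth factors and keep them from the IGF1 receptor until a protease cuts the binding protein. In bone and marrow stroma, osteoblast-lineage cells make IGFs and several of the binding proteins, and some of the proteins also act on cells without IGF.

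The sequence just upstream of each gene's annotated start is shown as background. It is a single assembly sequence per gene, so it cannot show how NOD and BALB/c mice differ there. Any link between these stretches and the strain differences was not tested. Each run holds 250 bases from RefSeq (mouse assembly GRCm38.p6), read 5′ to 3′ on the gene's own strand and ending at the base before the start. All 3 genes were found in the RefSeq table. Igfbp3 lies on the minus strand at chr11:7213924-7214173, Igfbp4 on the plus strand at chr11:99040994-99041243, and Igfbp6 on the plus strand at chr15:102143936-102144185. Capitals mark every match, on either strand, to any of the 5 short motifs searched. These were the TATA box as TATAAA or with its variant letters TATATA, the GC box GGGCGG, the CCAAT box and the E-box CACGTG.
Igfbp3: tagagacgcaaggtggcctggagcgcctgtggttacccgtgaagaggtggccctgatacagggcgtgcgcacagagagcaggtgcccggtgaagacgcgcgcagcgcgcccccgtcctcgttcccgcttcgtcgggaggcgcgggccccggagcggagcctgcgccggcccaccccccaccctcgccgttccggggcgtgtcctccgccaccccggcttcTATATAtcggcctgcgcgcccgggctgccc
Igfbp4: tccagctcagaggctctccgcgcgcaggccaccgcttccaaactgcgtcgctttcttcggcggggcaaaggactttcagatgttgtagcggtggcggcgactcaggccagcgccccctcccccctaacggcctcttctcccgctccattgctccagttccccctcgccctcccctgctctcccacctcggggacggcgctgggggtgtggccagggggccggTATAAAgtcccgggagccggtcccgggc
Igfbp6: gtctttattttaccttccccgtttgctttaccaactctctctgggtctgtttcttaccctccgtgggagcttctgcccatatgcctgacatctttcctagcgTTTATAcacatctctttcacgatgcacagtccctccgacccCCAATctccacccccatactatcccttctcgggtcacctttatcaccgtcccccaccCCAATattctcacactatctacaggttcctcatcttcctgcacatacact

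Igfbp3 held TATATA 30 to 25 bases before its start, and Igfbp4 held TATAAA 28 to 23 bases before its start. In Igfbp6 the only TATAAA match was on the reverse strand, printed as TTTATA, 148 to 143 bases before the start. Igfbp6 also held CCAAT at 107 to 103 and at 50 to 46 bases before the start. Neither the GC box nor the E-box occurs in any of the 3 stretches, and none of the marked matches overlap. Over 32851 mouse promoters of the same length, TATAAA occurred in 12.4%, TATATA in 5.25%, the CCAAT box in 33.8%, the GC box in 32.7% and the E-box in 6.02%. The GC content was 73.2% for Igfbp3, 69.2% for Igfbp4 and 49.6% for Igfbp6, against a median of 52.4% over those promoters. These matches describe the letters, and the arrays did not measure binding or chromatin.

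Median raw signal per array was 68.7 to 78.6 in NOD cultures and 56.5 to 74.9 in BALB/c cultures, and 36.2% to 39.4% of usable probes were detected on each array. Log2 levels over all tested probes correlated at 0.927 to 0.985 between NOD arrays, at 0.842 to 0.983 between BALB/c arrays and at 0.811 to 0.905 between the strains. On the first principal component BALB/c cultures 2 and 3 (1.96 and -37.4) stood apart from BALB/c cultures 1 and 4 (-94.0 and -83.3). NOD cultures lay at 22.8 to 78.5, with NOD culture 2 lowest, so BALB/c cultures 2 and 3 were those nearest to NOD. Results are also given without them, but leaving out the cultures nearest to NOD favours strain calls and adds no support. In NOD against BALB/c cultures 8.52% of 17757 tested probes passed an adjusted p under 0.05. Of these, 740 were higher (4.17%) and 773 lower (4.35%). Scaling by the median in place of quantile normalization split them into 965 higher and 546 lower and put the centre of all differences at 0.16 on the log2 scale.

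All 3 binding proteins passed an adjusted p under 0.05 by limma, Igfbp6 only just, as did 9.10% of the 4220 tested genes. They were chosen with earlier results of these data known, so the count beside that share says nothing about binding proteins as a group. Igfbp3 was 7.18-fold and Igfbp4 3.82-fold higher in NOD MSC, a direction called for 4.15% of genes. Igfbp6 was 3.33-fold lower in NOD MSC, a direction called for 4.95% of genes. The arrays of the strains did not overlap for Igfbp3 and Igfbp4, as for 18.9% of tested genes, and overlapped for Igfbp6. In these bulk samples fewer cells of a type and less RNA per cell cannot be told apart.

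**Figure D1:**
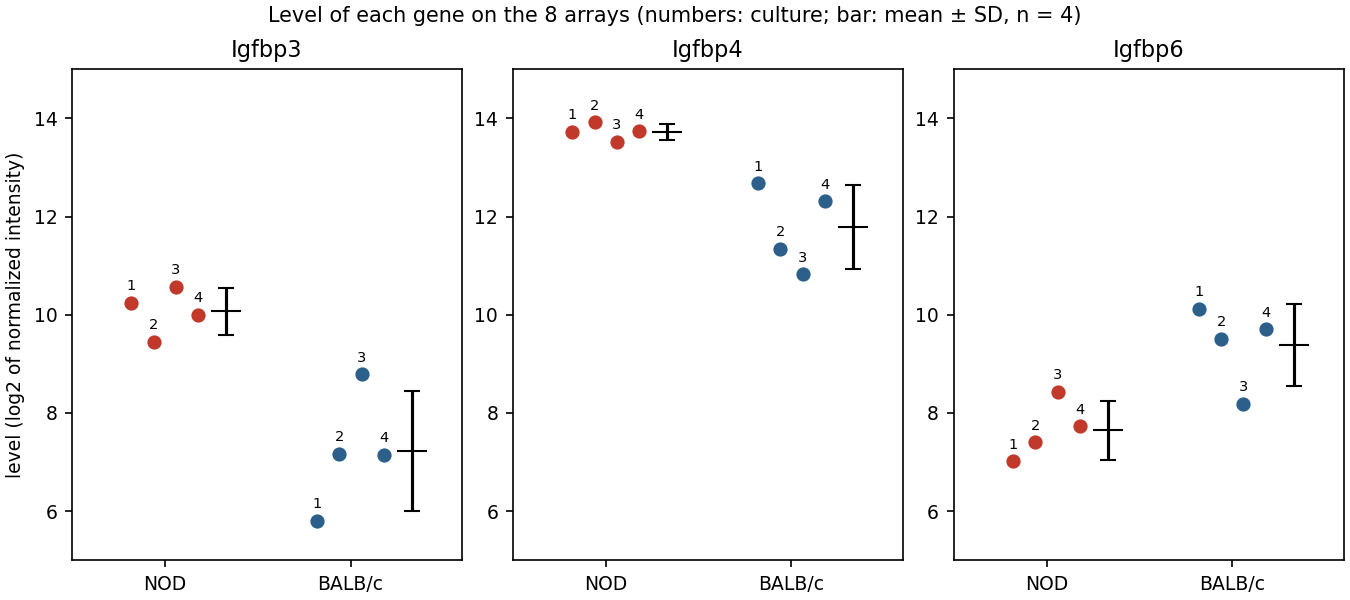
Normalized log2 level (vertical axis) of Igfbp3, Igfbp4 and Igfbp6 in each culture, with NOD left of BALB/c; points are the 4 cultures of a strain with their numbers, and bars give the mean ± SD. The NOD points lie above all BALB/c points for Igfbp3 and Igfbp4, while for Igfbp6 NOD culture 3 at 8.44 lies above BALB/c culture 3 at 8.18.

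Igfbp3 (gene ID 16009) encodes the main carrier of IGFs in the blood, where it joins an IGF and the acid-labile subunit in a complex. The raw probe signal was 1318, 854, 2066 and 1218 in NOD cultures 1 to 4, against 78.5, 201, 456 and 131 in BALB/c cultures 1 to 4. NOD signals were 14.6 to 35.8 times the median of the array's negative controls, and BALB/c signals were 1.59 to 9.36 times that median. The lowest NOD culture was above the highest BALB/c culture, and the probe was detected on all 8 arrays. BALB/c culture 1 came closest to background, with a detection p-value of 0.0293.

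After background correction and quantile normalization, the log2 level of Igfbp3 was 10.25, 9.45, 10.57 and 10.00 in NOD cultures 1 to 4, against 5.80, 7.17, 8.78 and 7.14 in BALB/c cultures 1 to 4. The NOD mean was 10.07 ± 0.47 and the BALB/c mean 7.22 ± 1.22 (SD, n = 4 each). NOD cultures were thus closer to each other than BALB/c cultures, as over all tested probes (median SD 0.29 in NOD and 0.48 in BALB/c). Among the tested probes the SD of Igfbp3 stood at the 76.7 percentile in NOD and the 91.3 percentile in BALB/c. NOD cultures exceeded BALB/c cultures by 2.84 ± 0.56 (SE) on the log2 scale, with a 95% confidence interval of 1.57 to 4.12. This is a fold of 7.18, with an interval of 2.96 to 17.4 (limma, adjusted p = 0.0175 over all tested probes). An exact two-sided permutation test over the 8 arrays gave p = 0.0286, the smallest that 4 against 4 arrays allow. The ratio of raw mean signals, with no correction, was 6.30, and the ratio of the authors' normalized means was 5.22.

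The Igfbp3 difference was 12.1-fold (adjusted p = 0.00135) without BALB/c cultures 2 and 3. It was 3.80-fold, still called, when the few implausible detection p-values of very bright probes were kept as deposited. Leaving out NOD culture 1, 3 or 4 or BALB/c culture 4 ended the call, at adjusted p = 0.0570, 0.0581, 0.0587 and 0.0544.

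Igfbp4 (gene ID 16010) encodes a binding protein that mostly restrains IGF action in bone cells until the protease pappalysin cuts it. The raw signal was 14237, 15103, 15848 and 15964 in NOD cultures 1 to 4, against 5385, 2755, 1703 and 4206 in BALB/c cultures 1 to 4. Every culture was far above background, at 238 to 307 times the negative-control median in NOD and 34.9 to 109 times in BALB/c. The 4 NOD signals lay within a narrow band, while the highest and lowest BALB/c cultures were well apart.

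On the normalized log2 scale, Igfbp4 was at 13.72, 13.92, 13.52 and 13.73 in NOD cultures 1 to 4, against 12.68, 11.35, 10.82 and 12.32 in BALB/c cultures 1 to 4. The mean was 13.73 ± 0.16 in NOD cultures and 11.79 ± 0.86 in BALB/c cultures (SD, n = 4 each), and the strains were separated by a gap of 0.84. The difference was 1.93 ± 0.39 (SE, 95% confidence interval 1.05 to 2.82), or 3.82-fold with an interval of 2.06 to 7.07 (limma, adjusted p = 0.0190). The exact two-sided permutation p was 0.0286. The ratio of means was 4.35 in the raw signals and 3.19 in the authors' normalized values.

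Without BALB/c cultures 2 and 3, the lowest BALB/c cultures for Igfbp4, the fold was 2.34 (adjusted p = 0.00439). The call ended without NOD culture 1, 2 or 4, at adjusted p = 0.0585, 0.0539 and 0.0672. Fitting culture number as a block, although the numbers did not pair the cultures, gave adjusted p = 0.0620.

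Igfbp6 (gene ID 16012) encodes a binding protein that prefers IGF2 over IGF1. Its raw signal was 195, 248, 502 and 290 in NOD cultures 1 to 4, against 912, 792, 314 and 638 in BALB/c cultures 1 to 4. These were 3.26 to 8.69 times the negative-control median in NOD and 6.43 to 18.5 times in BALB/c, and all 8 arrays detected the probe. NOD culture 3 was the highest of its strain and BALB/c culture 3 the lowest of its strain, and there the strains crossed.

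The normalized log2 level of Igfbp6 was 7.01, 7.40, 8.44 and 7.73 in NOD cultures 1 to 4, against 10.12, 9.51, 8.18 and 9.70 in BALB/c cultures 1 to 4. The mean was 7.64 ± 0.60 in NOD cultures and 9.38 ± 0.84 in BALB/c cultures (SD, n = 4 each). The difference was -1.73 ± 0.45 (SE, 95% confidence interval -2.76 to -0.71), which is 3.33-fold lower with an interval of 1.63 to 6.78 (limma, adjusted p = 0.0496). This lay just inside the threshold. The exact two-sided permutation test over the 8 arrays gave p = 0.0571. BALB/c over NOD, the ratio of means was 2.15 in the raw signals and 2.77 in the authors' normalized values.

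The Igfbp6 call held in 6 of 21 alternatives and was lost in 15, and the direction was the same in all 21. The alternatives that kept it included those without BALB/c culture 2, culture 3 or both, which favour strain calls. The call was lost with median scaling (-1.55, or -1.70 relative to the shift of all probes, adjusted p = 0.0686) and with the authors' normalized values (-1.38, adjusted p = 0.0654). It was also lost without any 1 of the 4 NOD cultures (adjusted p = 0.0531 to 0.132), without BALB/c culture 1 (0.137) and without BALB/c culture 4 (0.134). Without BALB/c culture 3 the adjusted p was 0.00704. Without BALB/c cultures 2 and 3 the difference was 4.81-fold (adjusted p = 0.00499).

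**Figure D2:**
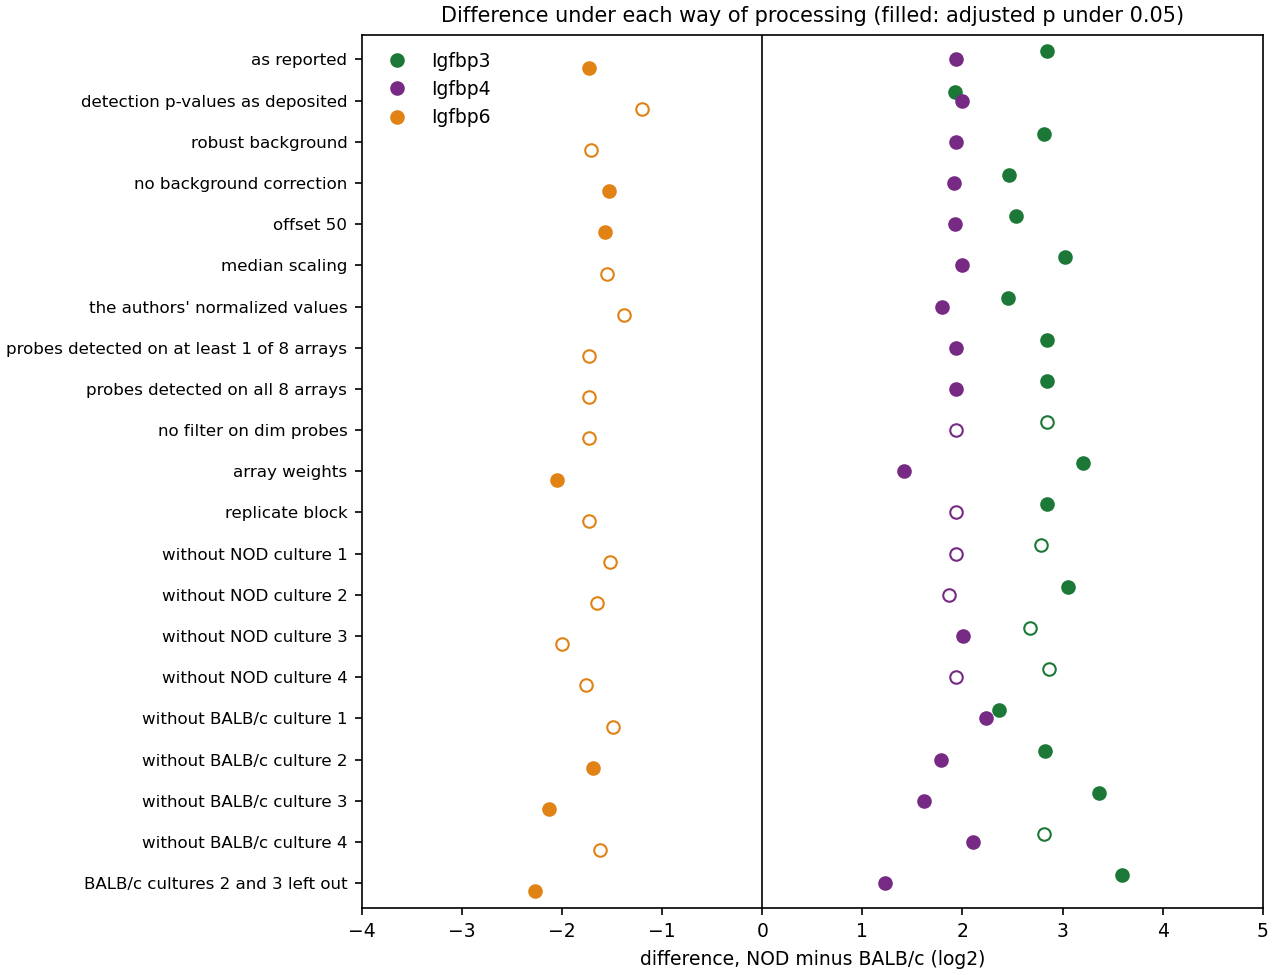
Log2 difference between strains, NOD minus BALB/c (horizontal axis), for Igfbp3, Igfbp4 and Igfbp6 under each way of processing the arrays and with cultures left out (rows); filled points passed an adjusted p of 0.05. All points for Igfbp3 and Igfbp4 lie right of 0, from 1.92 to 3.60 and from 1.23 to 2.23, and those for Igfbp6 lie left of it, from -2.27 to -1.20, most of them open.

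The strain differences of the binding proteins were also compared with each other, for all 3 pairs on the same arrays. The members were chosen with earlier results known, so the comparisons with Igfbp6 restate the opposite directions above and are no further support. The change of Igfbp3 exceeded that of Igfbp6 by 4.58 ± 1.06 (SE) on the log2 scale. The change of Igfbp4 exceeded that of Igfbp6 by 3.67 ± 0.41 (SE). Both gave p = 0.0286 by an exact two-sided permutation test, the smallest possible, and an adjusted p of 0.0429 over the 3 pairs. Igfbp3 and Igfbp4 changes differed by 0.91 ± 1.06 (SE, adjusted p = 0.457 by the exact permutation test) and so lay within 1 SE of 0, which does not show that they were alike. Without any 1 NOD culture, both differences from Igfbp6 missed the threshold, at adjusted p = 0.0857 by exact permutation with 3 against 4 arrays. Without any 1 BALB/c culture, both stayed at adjusted p = 0.0429 by the same test.

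Within a strain, the order of the cultures on the normalized log2 scale was not the same for the 3 genes. Among BALB/c cultures, Igfbp4 and Igfbp6 had the same order, highest in culture 1, then 4, 2 and 3. Igfbp3 ran otherwise, highest in BALB/c culture 3 and lowest in culture 1. Among NOD cultures, Igfbp3 and Igfbp6 were both highest in culture 3, where normalized Igfbp4 was lowest. Raw signals ordered some cultures otherwise: for Igfbp6, BALB/c culture 2 was above culture 4, and for Igfbp4, NOD culture 1 was lowest. On the normalized scale BALB/c culture 3 was the BALB/c culture nearest to the NOD levels for Igfbp3 and Igfbp6, and the farthest from them for Igfbp4.

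**Figure D3:**
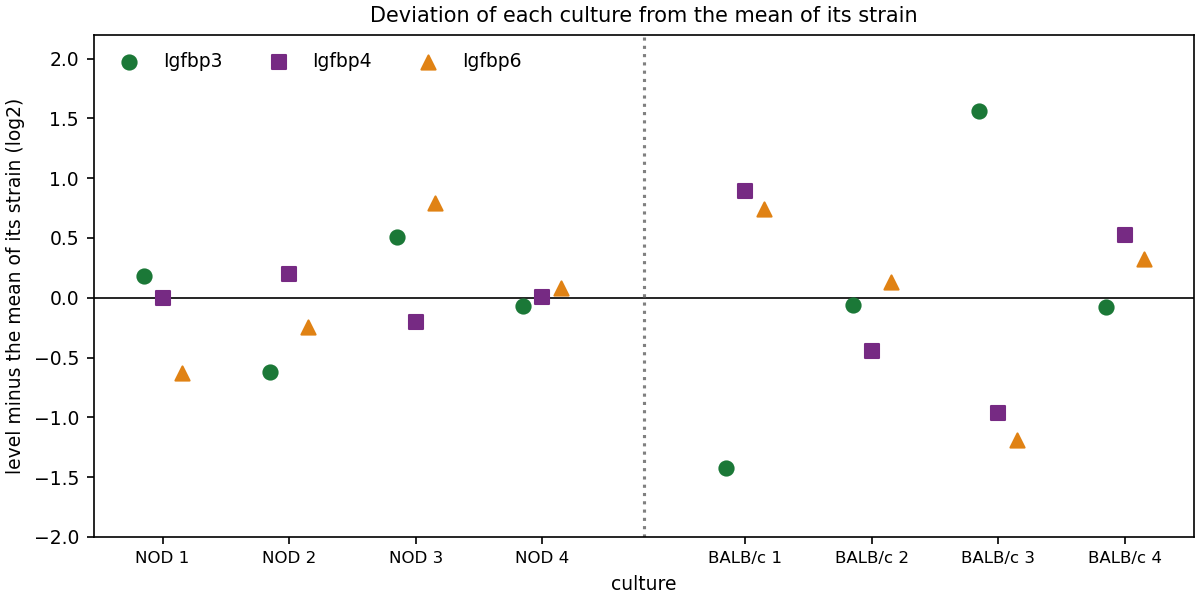
Deviation of each culture's log2 level from the mean of its strain (vertical axis) for Igfbp3, Igfbp4 and Igfbp6, NOD cultures left and BALB/c cultures right. In BALB/c culture 3 Igfbp3 (8.78) lies above the BALB/c mean of 7.22, while Igfbp4 (10.82) and Igfbp6 (8.18) lie below their means of 11.79 and 9.38.

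Among the other binding proteins, Igfbp5, which binds bone matrix as well as IGFs, had 2 probes and neither was called. Its brighter probe was at log2 13.03, 13.53, 12.32 and 13.20 in NOD cultures 1 to 4, against 9.71, 8.49, 11.84 and 12.43 in BALB/c cultures 1 to 4. BALB/c culture 4 was above NOD culture 3, so the strains overlapped at this probe, and the BALB/c cultures spread widely. The difference was 2.40 ± 0.80 (SE, limma adjusted p = 0.104), and the other probe gave 2.50 ± 0.83 (adjusted p = 0.101). At that other probe the lowest NOD culture (12.28) was just above the highest BALB/c culture (12.24), so there the strains did not overlap. Igfals, the acid-labile subunit, was detected on none of the NOD arrays and 1 BALB/c array and was not tested. Igfbp1, Igfbp2, Igfbp7 and Igfbpl1 had no probe that could be named and were not analysed here.

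The growth factor Igf1 differed by 0.43 ± 0.33 (SE, adjusted p = 0.455) between NOD and BALB/c MSC. Its receptor Igf1r, the tyrosine kinase that carries the IGF signal into the cell, differed by 0.55 ± 0.23 (SE, adjusted p = 0.173). Igf2, Igf2r and Insr had no probe that could be named and were not analysed here. Neither Igf1 nor Igf1r passed the test, which does not show that their levels were alike.

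Of 64 listed genes of the IGF system, 30 had a probe, 25 were detected on at least 1 array and 23 were tested. Among the 20 tested genes other than the 3 binding proteins, 2 were higher in NOD MSC, none was lower and 18 were not called. That is 10% called, against 9.10% of all tested genes. At an unadjusted p under 0.05 there were 10 of the 20, 8 with a positive and 2 with a negative difference, against 27.6% of all tested genes. The median difference of the 20 genes was 0.39, against -0.02 over all tested genes. The 2 tested genes among binding-protein proteases and their inhibitors, named here after their values were seen, were Adam12, which can cleave binding proteins (1.05, adjusted p = 0.137), and Stc2, which inhibits pappalysin (0.35, adjusted p = 0.636). No gene of that role, nor of IGF2 mRNA binding or the IGFBP-related proteins, was called.

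Lrp6, a Wnt co-receptor to which Igfbp4 is known to bind, was the called gene among 4 tested partners of the binding proteins. Its log2 level was 9.12, 8.38, 9.28 and 8.85 in NOD cultures 1 to 4, against 7.27, 7.79, 6.06 and 7.16 in BALB/c cultures 1 to 4. The strains did not overlap, and Lrp6 was 3.58-fold higher in NOD MSC (1.84 ± 0.37 on the log2 scale, SE, adjusted p = 0.0192). The strains also did not overlap for Foxo1, nor for Rxra, Fzd8 and Pik3r1, which were not called. These 5 are 25% of the 20 tested IGF-system genes other than the members, against 18.9% of all tested genes. With detection p-values kept as deposited Lrp6 was 1.78-fold higher (adjusted p = 0.0267). The call was lost in 6 of 20 alternatives, among them those without NOD culture 1, 3 or 4 (adjusted p = 0.0640, 0.0621 and 0.0650) and without BALB/c culture 4 (0.0543).

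Foxo1, a transcription factor held out of the nucleus by insulin and IGF signalling, was the called gene among 7 tested in receptor signalling. Its log2 level was 9.06, 8.88, 9.55 and 9.21 in NOD cultures 1 to 4, against 7.68, 8.10, 8.03 and 7.97 in BALB/c cultures 1 to 4. Every NOD culture was above every BALB/c culture, a 2.35-fold difference (1.23 ± 0.21, SE, adjusted p = 0.00818). The Foxo1 call was lost in 1 of 20 alternatives, the replicate block (adjusted p = 0.0636). Grb10, an adaptor that dampens the IGF1 receptor, was detected on 3 NOD arrays and none of the BALB/c arrays and was not tested. Its level was 2.30-fold higher in NOD MSC when the BALB/c arrays were set to the detection limit. The NOD array without detection kept its measured value, so this fold is not a strict lower bound. Grb10 was singled out after its values were seen.

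**Figure D4:**
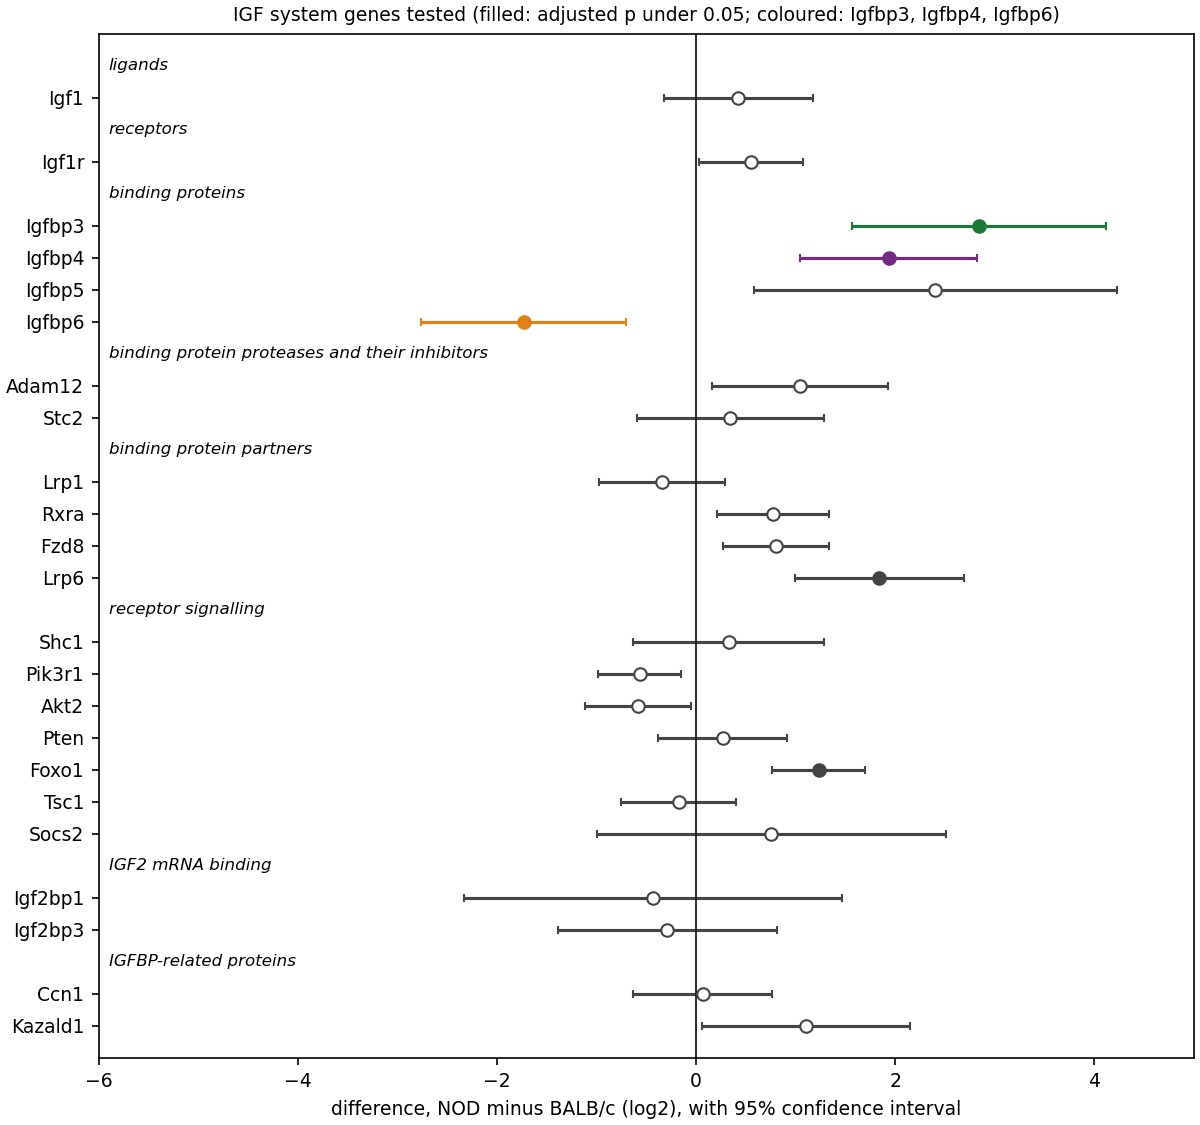
Log2 difference between strains, NOD minus BALB/c (horizontal axis), for the 23 tested genes of the IGF system, grouped by role; bars are 95% confidence intervals and filled points passed an adjusted p of 0.05. Igfbp3 (2.84), Igfbp4 (1.93), Lrp6 (1.84) and Foxo1 (1.23) are filled on the NOD side, and Igfbp6 (-1.73) is filled on the BALB/c side.

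The genes whose log2 levels followed each binding protein most closely over the 8 arrays were not the other binding proteins. These correlations are given as descriptions: the 8 arrays share 2 strain means and normalization, so the value after subtracting the strain means is given too. For Igfbp3 they were Chtop (0.989, and 0.986 after subtraction), Cdca7 (0.988 and 0.971), Alyref (0.985 and 0.946), Lsm3 (0.978 and 0.936) and Mrpl47 (0.977 and 0.901). For Igfbp4 they were Sardh (0.966 and 0.855), Pcdhb22 (0.960 and 0.925), Ccdc124 (0.960 and 0.819), Ptprd (0.957 and 0.800) and Sdhc (0.955 and 0.897). For Igfbp6 they were Cited2 (0.972 and 0.920), the matrix proteoglycan gene Dcn (0.972 and 0.920), Supt6 (0.965 and 0.927), Rps20 (0.963 and 0.932) and H2ac18 (0.956 and 0.973). The genes named are the top of longer lists: of 4220 tested genes, 140 exceeded 0.9 with Igfbp3, 48 with Igfbp4 and 56 with Igfbp6.

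Of 7 listed osteoblast markers 5 had a probe and 4 were tested. Of these, 3 (Bglap, Bglap2 and Alpl) were higher in NOD MSC, a direction called for 4.15% of all tested genes. Alpl passed only just (limma adjusted p = 0.0479), and Bglap and Bglap2 ordered the cultures of each strain alike. The other tested marker, Spp1, was not called and differed slightly the other way (-0.18, limma adjusted p = 0.509). Spp1 was the brightest of these probes in BALB/c cultures, at a mean log2 level of 13.90. Runx2 was detected on none of the NOD arrays and 1 BALB/c array and was not tested. The mean log2 level of the osteoblast probes was 9.79 to 11.52 in NOD cultures, against 6.96 to 8.53 in BALB/c cultures, and their summed raw signal was 17635 to 52211 against 13352 to 16115. Of 8 listed macrophage markers 4 had a probe and 2 were tested, with none called by limma at the adjusted threshold. Cd68 was detected on all 4 BALB/c arrays and none of the NOD arrays, so it passed the filter through BALB/c arrays alone. Its difference of -2.08 (limma adjusted p = 0.0615) rests on NOD values below detection and is no support for a strain difference. Lyz2 was detected on 2 NOD and 3 BALB/c arrays (-2.15, limma adjusted p = 0.331). The summed raw signal of the 4 macrophage probes was 255 to 622 in NOD cultures, against 264 to 3182 in BALB/c cultures. Itgam was not detected on any array. The part of either marker list in the Igfbp3, Igfbp4 and Igfbp6 differences was not tested.

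For the labelled cell type, 7 of 14 listed MSC and stromal markers had a probe and 6 were tested. Vcam1 and Prrx1 were higher in NOD MSC, a direction called for 4.15% of all tested genes, and Cxcl12 was not detected on any array. The other tested markers were not called by limma: Eng (-0.65, adjusted p = 0.569), Cd44 (0.27, 0.550), Alcam (1.28, 0.173) and Nes (0.39, 0.804). The summed raw signal of the 7 probes, in which bright probes weigh most, was 9102 to 12083 in NOD cultures, against 4082 to 6643 in BALB/c cultures. The leukocyte probes of Ptprc, Cd3e and S100a9 and the endothelial probes of Pecam1 and Emcn were not detected on any of the 8 arrays.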

How the data were processed

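RNA of 8 MSC cultures was labelled with biotin and hybridised to Illumina arrays, per the labels' protocols. The deposited table of raw values holds the mean signal intensity of each probe and its detection p-value, not normalized per the file headers. A second deposited table holds the authors' normalized intensity on a linear scale. For their normalization method, the array model and the software the entry is "not given in the sources used here".

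No column of either table names a gene. Of 9995 zero-padded numbers in probe identifiers, 81.1% were found among gene IDs of the RefSeq table of GRCm38.p6, against 11.3% of 16482 unpadded numbers, so the padded numbers were read as gene IDs. Of probes so named, 7 of 343 for olfactory receptors were detected on at least 4 arrays, against 77 of 88 for ribosomal proteins.

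With R 4.3.3 and limma 3.58.1, background was corrected by normexp from the 1603 negative controls implied by the deposited detection p-values. On each array 4 or 5 bright probes carried p-values under 1 step of these controls and were set to 0 first. An offset of 16 was added, arrays were quantile normalized and log2 taken. Probes detected at p under 0.05 on at least 4 of 8 arrays were kept and control probes left out. Strains, taken from the labels, were compared with lmFit and eBayes over all 17757 kept probes, with Benjamini-Hochberg adjustment and a threshold of 0.05. A gene was read by its brightest tested probe. Single values were also tested by exact permutation of arrays. The limma step was tested on simulated data. Arrays, 4 per strain, limit the precision.

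The members and gene lists were chosen with earlier results of these data known. Genes named are the 3 members, each called gene of the IGF lists, every other binding protein, ligand and receptor with a probe, the 5 genes most correlated with each member, and markers whose list moved. Alternatives covered background, offset, scaling, the filter, array weights, a replicate block and cultures left out. Probes that could not be named were counted only as probes.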

Additional observations from a re-analysis of the deposited data

How the results depend on the processing

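Igfbp3, Igfbp4 and Igfbp6 kept their direction in all 21 alternatives each. The call held in 16 of 21 for Igfbp3 and for Igfbp4 and in 6 of 21 for Igfbp6. For Igfbp3 and Igfbp4 the 16 include the exact permutation test, whose p is not adjusted. For Igfbp6 the 6 were no background correction (limma adjusted p = 0.0471), offset 50 (0.0491), array weights, and the fits without BALB/c culture 2, culture 3 or both. Leaving out those cultures favours strain calls. Without any filter on dim probes the differences of 2.84, 1.93 and -1.73 had adjusted p = 0.0668, 0.0622 and 0.137, with 46070 probes tested and unadjusted p of 0.00213, 0.00190 and 0.00806. For Igfbp6 the call was also lost with detection p-values as deposited (-1.20, adjusted p = 0.0975), robust background (-1.71, 0.0503), median scaling (-1.55, 0.0686), the authors' values (-1.38, 0.0654), filters of at least 1 array (-1.73, 0.0580) or all 8 arrays (-1.73, 0.0562), and the exact permutation test (-1.73, p = 0.0571). With detection p-values as deposited, the change of Igfbp3 minus that of Igfbp4 turned to -0.075 (adjusted p = 0.943 by exact permutation). The cause was not tested.

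With 1 culture left out, the Igfbp3 difference was 2.37 to 3.36, Igfbp4 1.61 to 2.23 and Igfbp6 -2.13 to -1.49. The excess of Igfbp3 over Igfbp6 was then 3.86 to 5.50 and that of Igfbp4 over Igfbp6 3.46 to 4.00. Without BALB/c cultures 2 and 3 these were 5.86 and 3.49, at an adjusted p of 0.0667 by exact permutation, the smallest possible there.

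Counts moved more than the members did. The 1513 probes, 384 genes and 5 IGF-system genes called became 776 probes and 216 genes with detection on all 8 arrays. They were 10257, 2435 and 17 with array weights (a fit that did not converge), 6405, 1493 and 10 without BALB/c cultures 2 and 3, and 619 to 3696, 169 to 855 and 1 to 7 with 1 culture left out. Without NOD cultures 1 to 4 in turn, 214, 254, 230 and 169 genes were called, and without BALB/c cultures 1 to 4, 208, 855, 694 and 215. Without a filter 1 IGF-system gene was called. Median scaling gave 965 probes higher and 546 lower, against 740 and 773.

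The labels number the cultures 1 to 4 in each strain. Same-numbered cultures deviated together at correlations of -0.64 to 0.08, and none of 8 cultures correlated best with its own number, so the numbers were not taken as pairs. With a replicate block, Igfbp4 (1.93, adjusted p = 0.0620) and Igfbp6 (-1.73, 0.179) lost their calls, and 513 probes, 128 genes and 1 IGF-system gene were called. Within pairs, 4.58 for Igfbp3 over Igfbp6 and 3.67 for Igfbp4 over Igfbp6 had an adjusted p of 0.1875 by exact permutation, which 4 pairs cannot bring under the threshold. Averaging a gene's probes was not run for the members, which have 1 probe each, and array weights were not applied to the pairs. Igfbp3 in BALB/c culture 1 was close to background, which limits the precision of its fold.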
